A study of Mus musculus with 15 samples.

Results

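RANKL 72 h against control is the comparison of bone marrow-derived macrophages (BMDMs, the adherent cells that grow out of bone marrow in M-CSF) given the osteoclast-forming cytokine RANKL for 72 h with BMDMs given no RANKL. It takes in 6 of the 15 samples of the series, the 3 libraries that the labels place in each of the 2 groups, and 11743 of the 20089 genes listed, those with a mean of at least 0.1 FPKM (fragments scaled to transcript length and library depth) over the 15 samples. All cells came from wild-type C57BL/6 mice and all received M-CSF at 50 ng/mL. The control group had M-CSF alone, and the RANKL group had RANKL at 100 ng/mL for 72 h as well. Of the other groups, RANKL at 100 ng/mL for 4 h and LPS at 100 ng/mL for 72 h, each with M-CSF and each with 3 libraries, were used for comparison. No group with M-CSF alone for a further 72 h was analysed here, so time in RANKL and time in culture cannot be told apart. Age and sex of the mice are not given, and nothing states that libraries of a group came from separate mice or cultures, so p-values measure only the spread between these libraries, which may be technical. The cells were cultured outside the animal, and bulk RNA does not tell fewer cells of a type from less RNA per cell.

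Osteoclasts are large cells with several nuclei that dissolve bone, and they form when precursors of the monocyte and macrophage lineage receive M-CSF and RANKL together. RANKL binds its receptor RANK, TRAF adaptors pass the signal to NF-κB and AP-1, and these with calcium signals from ITAM receptors switch on NFATc1, the factor that directs the osteoclast program. The mature cell fuses with its neighbours, seals a patch of bone with a ring of podosomes, pumps acid through a ruffled border and secretes cathepsin K and other enzymes, which costs much energy. LPS acts on TLR4 and drives the same precursors towards inflammatory gene expression instead.

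In all, 1951 of the 11743 genes tested (16.6%) were higher and 886 (7.54%) were lower after 72 h of RANKL. These shares of all genes are the background for the counts of each list below. A gene was called when its fold on the log2(FPKM + 0.1) scale was above 1.5 or below 0.66 and its Benjamini-Hochberg adjusted p from limma was under 0.05. Adding 0.1 understates the fold of genes with low values. The median log2 fold change of all genes tested was 0.16, and centring every library on its median gene (a shift of 0.22 between the groups) turned the split into 1167 higher and 1428 lower, so that higher genes were 68.8% of the calls before and 44.97% after. Among the called genes, 273 had a log2 fold change above 2 and 190 had one below -2. The 3 values of one group lay entirely above or below those of the other for 5770 genes (49.1%). The two-sided exact permutation p of such a gene is 0.1, the smallest that 3 against 3 libraries allow. The libraries held between 18306184 and 20330207 fragments. Replicate 2 of RANKL 72 h had the lowest value of its group in 9 of 9 called osteoclast markers and in 15 of the 15 largest rises, and replicate 3 had the highest in 8 and 13 of them. Where a list below has no call in one direction, limma voom on recovered fragments gave none either, and an unadjusted p under 0.05 with the same fold limits gave none except for 1 lower cell cycle gene and 2 lower MHC class II genes.

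**Figure D1:**
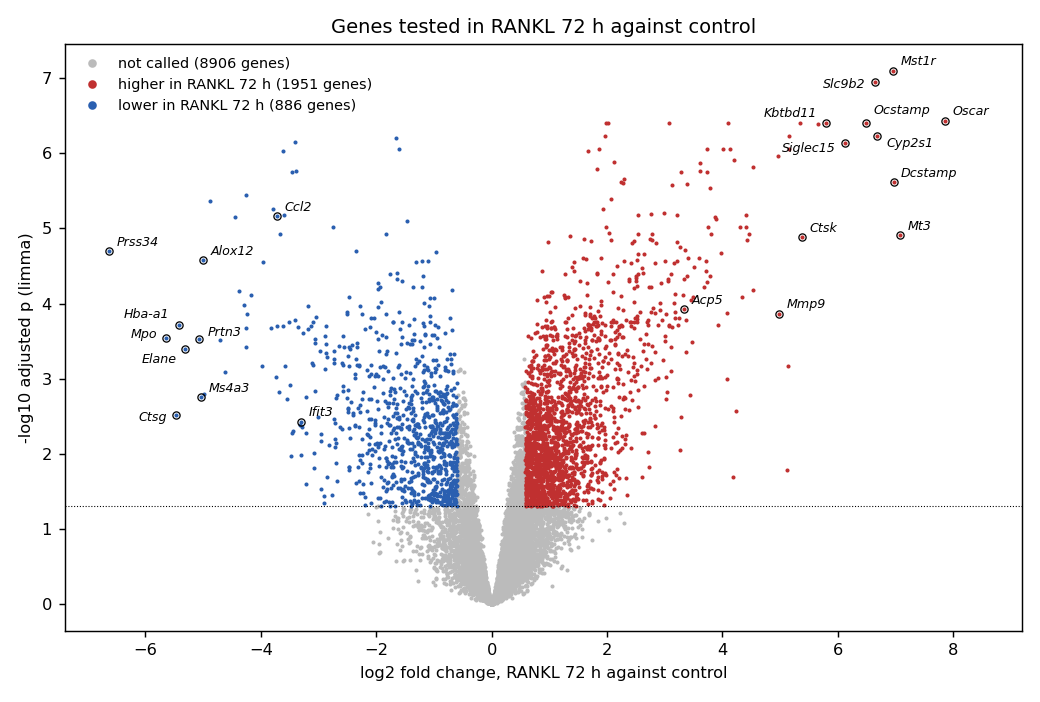
Log2 fold change of RANKL 72 h against control (x axis) and -log10 of the limma adjusted p (y axis) for the 11743 genes tested, 1 point per gene. The 1951 genes called higher lie on the right and the 886 called lower on the left, with osteoclast markers such as *Oscar*, *Dcstamp* and *Ctsk* far to the right.

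The osteoclast markers rose together. Of the 10 markers, 9 were higher and none was lower, with a median log2 fold change of 5.07 against 0.16 for all genes, and the count was 8 after centring. *Ctsk* (chr3:95499256-95509362, GRCm38), the cysteine protease that cuts bone collagen, was at 32.9, 15.5 and 23.5 FPKM in control replicates 1 to 3 and at 987, 532 and 1661 after RANKL. The groups did not overlap, and *Ctsk* was 41.6-fold higher (log2 5.38, SE 0.53, limma adjusted p = 1.3e-05). *Acp5* (chr9:22126727-22135711), which encodes tartrate-resistant acid phosphatase, the enzyme stained to count osteoclasts, was at 87.2, 55.2 and 33.5 FPKM in control and at 600, 293 and 945 after RANKL, 10.1-fold higher (limma adjusted p = 0.000118). *Mmp9* (chr2:164940780-164955850), a gelatinase, went from 44.4, 14.1 and 107 FPKM to 1245, 719 and 2394, a 31.6-fold rise (log2 4.98, limma adjusted p = 0.000136). Control was thus not at 0 for these 3 enzymes, and for each the lowest RANKL library was above the highest control library.

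The receptor and fusion genes among the markers started lower. *Oscar* (chr7:3609813-3616157), an ITAM-associated receptor for collagen, was at 0, 0.0762 and 0.108 FPKM in control, which is 0 to 4 fragments a library, and at 37.5, 18.2 and 66.7 FPKM after RANKL, or 688 to 2489 fragments. Its log2 fold change was 7.86 (SE 0.45, limma adjusted p = 3.69e-07). *Dcstamp* (chr15:39745930-39760938), a membrane protein that precursors need to fuse, went from 0.499, 0.251 and 0.0243 to 32.1, 22.4 and 70.9 FPKM, 125-fold higher (limma adjusted p = 2.42e-06). Its partner *Ocstamp* was 90.3-fold higher (log2 6.50). *Calcr*, the calcitonin receptor, had 0 fragments in every control library and 281, 145 and 508 after RANKL, which is at least 109-fold higher when each control library is set at 3 fragments, a limit that covers counting error only. *Nfatc1* rose 5.36-fold, from 6.24, 7.67 and 9.31 to 45.3, 25.2 and 62.2 FPKM (limma adjusted p = 2.85e-05).

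The other 2 markers rose less or did not pass. *Itgb3*, the β3 chain of the vitronectin receptor, was at 14.1, 6.81 and 7.86 FPKM in control and at 32.1, 12.03 and 31.3 after RANKL. It was called higher (2.5-fold, limma adjusted p = 0.02), but the groups overlapped, and the call was lost without RANKL 72 h replicate 1 or 3, without control replicate 2 or 3, after centring, and when the 2 groups were fitted alone. *Atp6v0d2*, the d2 subunit of the proton pump that also takes part in fusion, was at 93.9, 54.8 and 84.0 FPKM in control and at 151, 76.1 and 167 after RANKL, which did not pass (log2 0.72, SE 0.45, limma adjusted p = 0.247).

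**Figure D2:**
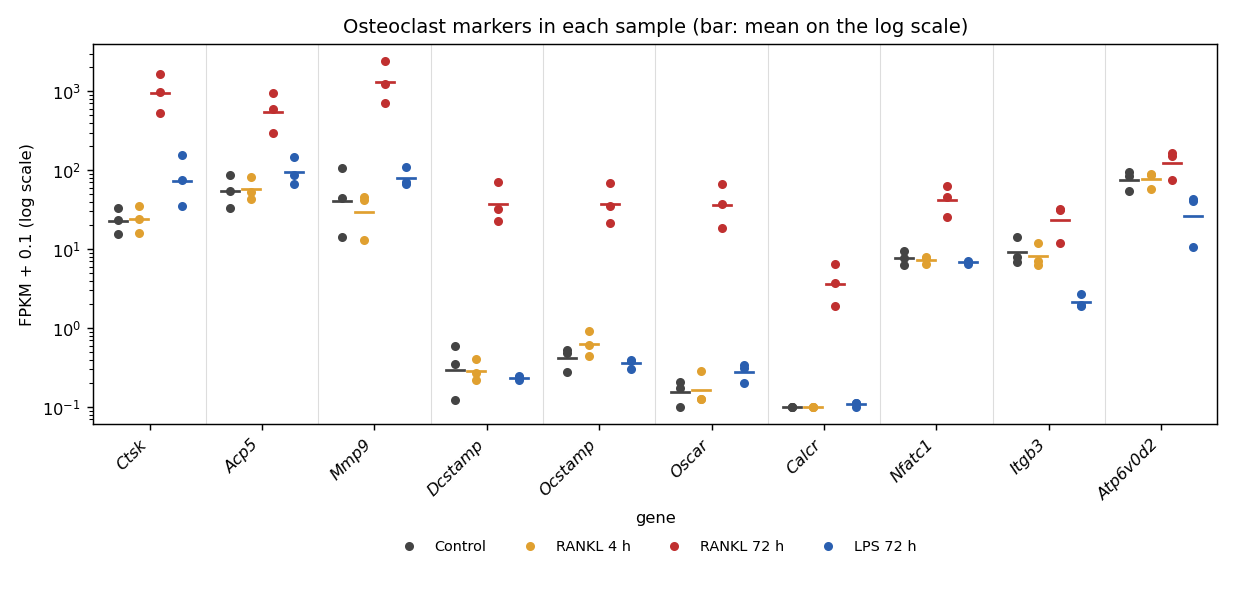
FPKM + 0.1 on a log axis of the 10 osteoclast markers by library, in colours for control, 4 h of RANKL, 72 h of RANKL and 72 h of LPS, with 1 point per library and a bar at the mean on the log scale. The RANKL 72 h points lie above all control points for 8 of the 10 genes, and overlap with control for *Itgb3* and *Atp6v0d2*.

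The promoters of 3 markers that rose and of the pump gene that fell are printed to show the start regions of genes that the results turn on. RefSeq (GRCm38.p6) gave 7 promoters for 4 of the 10 markers, each running from 250 bases before to 50 after a start. Capitals mark, on either strand, GGAAA (the core that NFAT proteins bind), TGANTCA (AP-1) and CACGTG (the E-box of the MITF and TFE family), and no matches overlap in the 4 sequences. They lie at chr3:95498960-95499259 (plus strand, *Ctsk*), chr7:3616108-3616407 (minus strand, *Oscar*), chr9:22135697-22135996 (minus strand, *Acp5*, 1 of its 3 starts) and chr11:101010148-101010447 (plus strand, *Atp6v0a1*).
Ctsk: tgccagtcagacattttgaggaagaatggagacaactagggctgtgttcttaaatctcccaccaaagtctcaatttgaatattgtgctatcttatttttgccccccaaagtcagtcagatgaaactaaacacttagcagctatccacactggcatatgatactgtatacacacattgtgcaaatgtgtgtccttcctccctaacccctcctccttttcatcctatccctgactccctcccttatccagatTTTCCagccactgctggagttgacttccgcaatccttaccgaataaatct
Oscar: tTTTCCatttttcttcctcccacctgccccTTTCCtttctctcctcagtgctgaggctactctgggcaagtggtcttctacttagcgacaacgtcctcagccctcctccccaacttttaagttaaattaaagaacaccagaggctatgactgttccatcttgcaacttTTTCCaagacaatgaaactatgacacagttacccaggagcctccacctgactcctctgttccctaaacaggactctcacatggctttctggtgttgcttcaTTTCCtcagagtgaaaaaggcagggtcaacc
Acp5: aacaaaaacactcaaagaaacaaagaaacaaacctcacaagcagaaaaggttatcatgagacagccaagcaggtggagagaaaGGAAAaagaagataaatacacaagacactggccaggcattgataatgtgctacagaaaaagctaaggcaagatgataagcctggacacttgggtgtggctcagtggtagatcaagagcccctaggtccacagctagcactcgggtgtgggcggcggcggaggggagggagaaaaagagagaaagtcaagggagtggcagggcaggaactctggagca
Atp6v0a1: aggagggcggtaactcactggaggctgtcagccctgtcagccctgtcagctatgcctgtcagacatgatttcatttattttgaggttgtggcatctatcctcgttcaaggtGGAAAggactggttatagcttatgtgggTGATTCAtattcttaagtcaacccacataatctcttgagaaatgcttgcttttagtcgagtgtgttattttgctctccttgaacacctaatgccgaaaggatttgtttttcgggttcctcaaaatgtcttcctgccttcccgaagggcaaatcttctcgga

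GGAAA stood in 6 of the 7 marker promoters (85.7%) and in 61.3% of all 32851 promoters. The marker promoter without it belongs to *Calcr*, whose promoters are not printed. Since the 7 come from 4 genes, they are not independent. TGANTCA was in none of the 7 and in 7.81% of all, and CACGTG in none of the 7 and in 7.15% of all. Among 24 promoters of 19 proton pump genes, GGAAA was in 13 (54.2%), CACGTG in 4 (16.7%) and TGANTCA in 1 (4.17%), that of *Atp6v0a1*. A match is only a run of letters in this window.

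Of 22 transcription factors tested that act below RANK, 11 were higher, none was lower and 11 did not pass (median log2 0.68), and after centring 9 were higher and 1 lower. *Jdp2*, an AP-1 family member, was the largest, from 11.5, 10.9 and 10.6 FPKM to 85.1, 55.3 and 142 (log2 2.98, limma adjusted p = 6.25e-06). *Fosl2*, which encodes the Fos relative FRA2, rose by a log2 of 2.79, and *Prdm1*, whose product BLIMP1 silences inhibitors of the osteoclast program, by 2.5. *Nfkb2*, the precursor of the non-canonical NF-κB subunit p52, went from 14.8, 11.3 and 9.002 to 46.2, 61.7 and 57.3 FPKM (log2 2.24, limma adjusted p = 2.41e-06), and its partner *Relb* by a log2 of 1.61. *Nfkb2* and *Relb* differ from the markers in that RANKL replicate 2 was the highest of the 3, not the lowest. *Fos* (log2 1.45) and *Junb* (log2 1.08) also rose. *Spi1*, which encodes the lineage factor PU.1, was at 191, 178 and 165 FPKM in control and 169, 190 and 222 after RANKL (log2 0.12, limma adjusted p = 0.496), and *Mitf* was at a log2 of 0.28 (limma adjusted p = 0.251).

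Genes known to hold back osteoclast formation did not move one way against control. Of 12 tested, 4 were higher and 2 lower (median -0.11). *Irf8*, a repressor of *Nfatc1*, fell from 62.1, 75.8 and 61.7 FPKM to 38.7, 37.5 and 26.4 (log2 -0.97, limma adjusted p = 0.00146), and *Id1*, an inhibitor of helix-loop-helix factors, fell by 2.11 on the log2 scale. *Bcl6*, a repressor that BLIMP1 acts on, did not pass (log2 -0.20, limma adjusted p = 0.41). *Nfkbia*, the NF-κB inhibitor IκBα and itself a target of NF-κB, rose from 54.0, 35.6 and 40.6 to 103, 125 and 177 FPKM (log2 1.62, limma adjusted p = 0.000141). *Rbpj*, the DNA-binding factor of the Notch pathway, rose by a log2 of 1.09 and *Cyld*, a deubiquitinase, by 0.70, the latter not after centring. *Klf4* was called higher as well (log2 1.30), but not without control replicate 1.

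**Figure D3:**
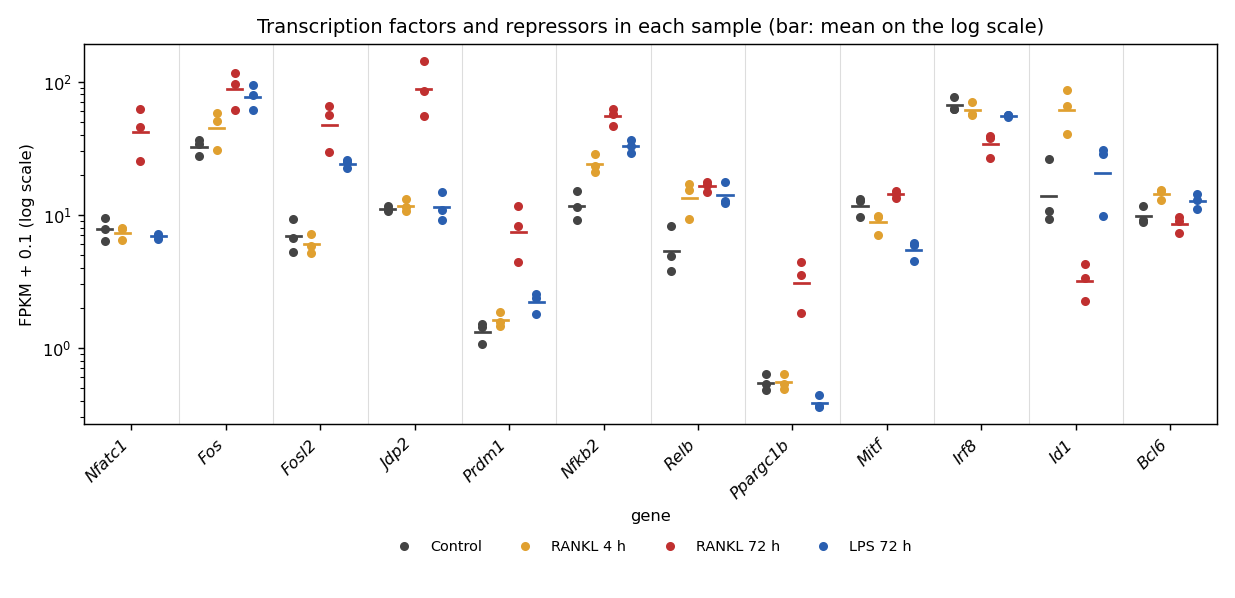
FPKM + 0.1 on a log axis of 12 transcription factors and repressors by library, coloured by group (control, 4 h or 72 h of RANKL, and 72 h of LPS), with 1 point per library and a bar at the mean on the log scale. The RANKL 72 h points of *Jdp2* (55.3 to 142 FPKM) and *Nfatc1* (25.2 to 62.2) lie above those of the other 3 groups, and those of *Id1* and *Irf8* lie below control.

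Of 22 receptors and adaptors of RANK and M-CSF signalling tested, 10 were higher and 1 lower (median 0.40), but 4 were higher after centring, and the lower one, *Sqstm1*, was called in neither direction without RANKL 72 h replicate 1, 2 or 3 or control replicate 2 or 3. *Traf1*, an adaptor that NF-κB itself induces, went from 3.03, 2.12 and 1.40 to 12.3, 17.0 and 17.8 FPKM (log2 2.84, limma adjusted p = 2.88e-05). *Src*, the tyrosine kinase needed for the ruffled border, went from 6.06, 3.44 and 3.54 to 28.9, 18.4 and 43.6 (log2 2.74, limma adjusted p = 6.04e-05). *Tnfrsf11b* encodes osteoprotegerin, the decoy that catches RANKL, and it rose by a log2 of 1.93, to a mean of only 2.57 FPKM. Both receptors of the system rose less: *Tnfrsf11a*, which encodes RANK, went from 14.7, 18.2 and 16.7 to 24.1, 28.2 and 34.4 FPKM (log2 0.79, limma adjusted p = 0.00427), and *Csf1r*, the M-CSF receptor, from 190, 217 and 188 to 339, 297 and 339 (log2 0.71, limma adjusted p = 0.00208). Neither receptor was called after centring.

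The ITAM and calcineurin list, which links receptors to calcium and NFATc1, held 5 higher and 1 lower of 20 tested (median 0.04). It held 3 higher and 0 lower without RANKL 72 h replicate 3, 0 lower without control replicate 2, and 2 to 3 lower without RANKL 72 h replicate 1 or 2 or control replicate 3. Its rises were led by *Oscar* and by *Siglec15*, a sialic acid receptor of osteoclasts, which went from 0.0982, 0.116 and 0.246 to 19.5, 8.47 and 29.8 FPKM (log2 6.12, limma adjusted p = 7.32e-07). *Plcg1*, a phospholipase C, rose by a log2 of 0.94. More abundant members did not pass: *Trem2*, another ITAM receptor, was at a log2 of -0.47 (limma adjusted p = 0.0583, called lower without RANKL 72 h replicate 1 and after centring) and *Plcg2* at -0.19 (limma adjusted p = 0.401). *Tyrobp* was not analysed here.

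Of 11 cell fusion genes, 4 were higher and 1 lower (median 0.72), the lower count being 0 without RANKL 72 h replicate 1 or control replicate 2 and 2 without RANKL 72 h replicate 2 or control replicate 3. Beside *Dcstamp* and *Ocstamp* these were *Sh3pxd2a*, the podosome scaffold TKS5, which rose from 1.36, 2.58 and 1.85 to 10.1, 6.54 and 12.3 FPKM (log2 2.26), and *Snx10*, a sorting nexin (log2 1.39). The tetraspanin *Cd9* was at 150 FPKM in control and 167 after RANKL, which did not pass (limma adjusted p = 0.59). Of 25 podosome and sealing zone genes, 6 were higher and none lower (median 0.19): *Src*, *Sh3pxd2a*, the unconventional myosin *Myo10* (log2 1.89), the actin-severing protein *Gsn* (log2 1.22), the crosslinker *Actn1* (log2 1.13) and *Cttn*, cortactin (log2 1.12). Of 13 integrins 5 were higher (median 0.55), but 2 after centring, and 3 without RANKL 72 h replicate 1 or control replicate 1. *Itga2*, a collagen receptor chain, was the largest, from 0.243, 0.0556 and 0.0948 to 3.39, 1.13 and 3.35 FPKM (log2 3.49, limma adjusted p = 8.15e-05). *Itgav*, the partner of *Itgb3*, rose by a log2 of 1.44, though not without control replicate 1.

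No subunit of the vacuolar proton pump, which acidifies lysosomes and the space under the osteoclast, was called higher. Of 25 listed, 19 were tested and 1 was lower (median 0.17), beside 16.6% and 7.54% of all genes, and 1 was higher without RANKL 72 h replicate 2 or control replicate 3. *Atp6v0a1*, an a-subunit found in many cells, went from 59.8, 76.9 and 98.7 FPKM to 40.8, 46.8 and 42.3 (log2 -0.83, SE 0.20, limma adjusted p = 0.00709). *Tcirg1*, the a3 subunit that osteoclasts use at the ruffled border, was at 277, 247 and 271 in control and 216, 180 and 240 after RANKL (log2 -0.33, limma adjusted p = 0.181). Mean control levels of the 19 subunits already ran from 1.57 FPKM (*Atp6v1g2*) to 491 FPKM (*Atp6v0c*).

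Other genes of acid secretion split. Of 12 genes of acid secretion and the ruffled border, 5 were higher and 2 lower (median 0.35), of which 0 to 1 stayed lower when any 1 library was left out. *Slc9b2* (chr3:135307700-135345387), a sodium/proton exchanger, went from 0.294, 0.424 and 0.376 to 48.1, 26.8 and 75.1 FPKM, 99.8-fold higher (log2 6.64, SE 0.34, limma adjusted p = 1.14e-07). *Car2*, the carbonic anhydrase that supplies protons, went from 3.39, 2.19 and 1.22 to 35.4, 20.0 and 57.2 FPKM, 15.7-fold higher (limma adjusted p = 2.13e-05). *Rab38*, a small GTPase of lysosome-related organelles, rose by a log2 of 3.06, and *Slc4a2*, which exchanges bicarbonate for chloride, by 1.66. The chloride channel *Clcn7* (log2 0.02, limma adjusted p = 0.964) and its partner *Ostm1* (log2 0.14, limma adjusted p = 0.411) were near control. *Rab27a* was called lower (log2 -1.54), but not without RANKL 72 h replicate 3 or control replicate 1 or 3.

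Resorptive enzymes split. Of 14 tested, 4 were higher (*Ctsk*, *Mmp9*, *Acp5* and *Mmp14*) and 5 lower (median -0.47), with 3 lower when RANKL 72 h replicate 3 was left out. *Mmp14*, a membrane-bound matrix protease, went from 68.0, 31.6 and 17.2 to 143, 82.6 and 149 FPKM (log2 1.85, limma adjusted p = 0.00508). *Mmp13*, a collagenase, went the other way, from 154, 81.8 and 64.6 to 19.4, 19.4 and 11.6 (log2 -2.51, limma adjusted p = 0.000136). The lysosomal cathepsins *Ctsz* and *Ctsh* each fell by 1.0 on the log2 scale. *Ctsz* was at 1537, 1331 and 1178 FPKM in control and at 632, 706 and 673 after RANKL, so that it began in the range in which *Ctsk* ended.

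The wider list of 33 lysosomal hydrolases and membrane proteins held 6 higher and 5 lower (median -0.11), beside 16.6% and 7.54% of all genes. It held 3 higher and 9 lower after centring, and 3 lower without RANKL 72 h replicate 3 or control replicate 2. *Arsb*, a sulfatase that trims glycosaminoglycans, stood apart, from 11.4, 10.6 and 14.6 to 127, 61.9 and 184 FPKM (9.32-fold, limma adjusted p = 6.68e-06). *Lgmn*, an asparagine endopeptidase, fell from 1675, 1804 and 1419 to 850, 784 and 578 (log2 -1.16), and *Gla*, α-galactosidase A, fell by 1.17 on the log2 scale. *Lamp1*, the major lysosomal membrane protein, was at a log2 of -0.19 (limma adjusted p = 0.24). Of 12 calcium handling genes, 3 were higher: *Calcr*, the plasma membrane calcium pump *Atp2b4* (log2 2.64) and the store sensor *Stim2* (log2 0.63), the last not without RANKL 72 h replicate 2 or control replicate 1 and not after centring. None was lower, but 1 was without control replicate 2 or 3, *Orai1*, a calcium channel.

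Glycolysis was the metabolic list with the largest share of calls. Of 19 genes, 17 were higher and 1 lower (median 1.44), and 15 were higher after centring. The summed FPKM of the list was 3636, 3060 and 3062 in control and 7381, 7445 and 8625 after RANKL. Replicate 3 was the highest, as in most called markers, but replicate 1 was the lowest where the markers had replicate 2. *Aldoc*, aldolase C, went from 1.35, 1.14 and 1.32 to 29.2, 26.5 and 31.0 FPKM (21.2-fold, limma adjusted p = 6.59e-06). *Slc16a3*, which exports lactate, rose by a log2 of 2.67 and *Slc2a1*, the glucose transporter GLUT1, by 1.98. The enzymes *Pfkl*, *Tpi1* and *Pgk1* rose by 2.07, 2.03 and 1.92. The exception was *Hk3*, a hexokinase of myeloid cells, which fell from 251, 217 and 211 to 75.3, 84.5 and 63.4 FPKM (log2 -1.61, SE 0.11, limma adjusted p = 8.67e-07). *Slc16a1*, another lactate carrier, was at a log2 of 0.17 (limma adjusted p = 0.629). *Gapdh* (log2 1.34) has near-identical copies in the genome, so its value is uncertain.

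Of 21 genes of the citrate cycle and mitochondrial biogenesis 12 were higher and none lower (median 0.66), with 7 left after centring and also 7 without RANKL 72 h replicate 3. The summed FPKM of these genes after RANKL was 1608.5, 1407 and 2564. Replicate 3 was thus the highest and replicate 2 the lowest, as in most called markers. *Ppargc1b*, the coactivator PGC-1β, went from 0.377, 0.429 and 0.532 to 3.40, 1.73 and 4.30 FPKM (log2 2.49, limma adjusted p = 0.000157), and *Idh3a*, isocitrate dehydrogenase, rose by a log2 of 1.1. Of 68 subunits of the respiratory chain and ATP synthase 11 were higher and none lower (median 0.33), with 3 after centring and 4 without RANKL 72 h replicate 3. That share is close to the 16.6% of all genes. *Ndufa4l2*, a relative of a complex IV subunit, stood apart at 0.571, 0.266 and 0.0472 in control and 15.3, 6.49 and 2.29 FPKM after RANKL (log2 4.24, SE 0.86, limma adjusted p = 0.0027). In both groups replicate 1 was its highest and replicate 3 its lowest, an order unlike that of the osteoclast markers after RANKL. *Ndufv3* (log2 1.0) and *Ndufs1* (log2 0.83), both of complex I, were also called.

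Of 13 iron genes, 2 were higher and 4 lower (median -0.04), beside 16.6% and 7.54% of all genes. The higher count was 1 after centring or without RANKL 72 h replicate 3 or control replicate 1. *Hmox1*, which breaks down heme, fell from 938, 1245 and 1267 to 268, 293 and 272 FPKM (log2 -2.04, limma adjusted p = 0.000154). *Slc40a1*, the iron exporter ferroportin, fell by 1.97, *Fth1*, the heavy chain of ferritin, by 1.33 (not called without the filter on low values), and *Slc11a1*, the phagosomal metal transporter NRAMP1, by 1.06 on the log2 scale. *Steap4*, a metalloreductase, rose from 0.0890, 0.0299 and 0.0796 to 5.86, 2.66 and 8.06 FPKM (31.2-fold, limma adjusted p = 1.07e-06). The transferrin receptor *Tfrc* was at a log2 of -0.04 (limma adjusted p = 0.936). Of 15 NRF2 antioxidant genes 1 was higher and 7 lower (median -0.66), the higher one, *Sod1*, not without RANKL 72 h replicate 3 or control replicate 1 and not after centring. *Prdx1*, peroxiredoxin 1, fell from 2086, 2151 and 2125 to 553, 919 and 691 FPKM, and *Slc7a11*, the cystine transporter, fell by 1.70 on the log2 scale.

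Cholesterol synthesis rose as a group: 15 of 22 genes were higher and none lower (median 0.89), and 11 were higher after centring. *Insig1*, a regulator of the pathway, went from 10.5, 13.1 and 14.0 to 28.8, 33.8 and 33.6 FPKM (log2 1.35, SE 0.13, limma adjusted p = 1.27e-05). *Idi1*, *Sqle*, *Lss* and *Hmgcs1*, all enzymes of the path, rose by 1.48, 1.38, 1.32 and 1.02.

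Cell cycle calls depended on the library and the fit. Of 29 cell cycle genes, 12 were higher and none lower (median 0.86), but 5 were higher and 1 lower after centring, and 4 to 6 higher without RANKL 72 h replicate 2 or 3 or control replicate 1 or 2. The count was 21 when the 2 groups were fitted alone and 23 with limma voom. *Tk1*, thymidine kinase, kept its call throughout, from 8.72, 10.8 and 13.9 to 30.9, 49.8 and 40.4 FPKM (log2 1.85, limma adjusted p = 0.00621). *Pcna*, the clamp of the replication fork, was at 234, 328 and 351 in control and 135, 278 and 194 after RANKL (log2 -0.63, limma adjusted p = 0.0528), and was called lower in the blocked fit, after centring, and without RANKL 72 h replicate 2 or control replicate 1. Of 83 cytosolic ribosomal proteins, 8 were higher and none lower (median 0.40), beside 16.6% and 7.54% of all genes. After centring 2 were higher and 1 lower. The higher count was 14 without RANKL 72 h replicate 1 and 5 without RANKL 72 h replicate 3 or control replicate 1. With sums rescaled to be equal it was 23. Many of these genes have near-identical copies, so their values are uncertain.

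Of 27 cytokine and chemokine genes 1 was higher and 14 lower (median -1.17), and 16 were lower after centring. *Ccl2*, the monocyte attractant MCP-1, fell from 858, 948 and 619 FPKM to 29.6, 91.6 and 80.6 (log2 -3.72, SE 0.34, limma adjusted p = 6.88e-06). *Ccl3*, the macrophage inflammatory protein MIP-1α, fell from 174, 234 and 132 to 12.7, 14.5 and 15.4 (log2 -3.62, limma adjusted p = 9.42e-07). The related *Ccl12*, *Ccl7*, *Ccl5* and *Ccl4* fell by 3.68, 3.67, 3.58 and 3.46 on the log2 scale, and *Tnf* by 1.15. In none of these 7 genes did the groups overlap, which also held for 49.1% of all genes. *Il1b* (log2 -0.94, limma adjusted p = 0.148) and *Il6* (log2 -1.30, limma adjusted p = 0.0634) did not pass, and both were called lower when the replicate number was a block. The single call upwards, *Nos2*, was lost without RANKL 72 h replicate 1 or 3, without control replicate 2 or 3, after centring, with limma voom and when the 2 groups were fitted alone, and the upward count was 2 without control replicate 1 and in the blocked fit.

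Interferon-stimulated genes fell from a control level that varied between libraries. Of 27 tested, 20 were lower and none higher (median -1.56), and 24 were lower after centring. *Ifit3*, an antiviral RNA-binding protein, was at 516, 247 and 91.7 FPKM in control and at 20.7, 30.3 and 19.3 after RANKL (log2 -3.30, SE 0.71, limma adjusted p = 0.00375). *Isg15*, a ubiquitin-like modifier, went from 1043, 488 and 213 to 39.0, 66.6 and 51.7 (log2 -3.22, limma adjusted p = 0.00176). Control replicate 1 was the highest and replicate 3 the lowest in both, and even replicate 3 was above every RANKL library. *Ifit2* and *Rsad2* fell by 3.21 and 2.82, and the interferon factors *Irf7* and *Stat2* by 2.25 and 1.54 on the log2 scale. The fall was not particular to RANKL: 15 of the 27 were also lower after 72 h of LPS against control, none higher (median -0.94). The share of all genes called lower with LPS against control is not given here, so that count has no background. Directly against LPS at 72 h, 8 were lower and 1 higher with RANKL. After 4 h of RANKL none was called (median -0.81).

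Of 22 Toll-like receptor signalling genes 3 were higher and 7 lower (median -0.29), beside 16.6% and 7.54% of all genes. The higher count was 1 after centring and 1 without RANKL 72 h replicate 1 or 2 or control replicate 2. The nucleic acid receptors *Tlr9* and *Tlr7* fell by 1.21 and 1.12, the adaptor *Myd88*, shared by most of the family, by 0.92, and the peptidoglycan sensor *Nod1* by 1.1 on the log2 scale. *Tlr4*, the LPS receptor, lay just outside the fold limit (log2 -0.60, limma adjusted p = 0.00721) and was called lower without RANKL 72 h replicate 2 or control replicate 1 or 3. No gene of 13 for MHC class II and costimulation was called in either direction (median -0.55), while 3 were lower in the blocked fit, 1 without RANKL 72 h replicate 2 and 1 higher without control replicate 1.

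Factors that osteoclasts send to bone-forming cells were higher in the main. Of 11 tested, 6 were higher and 2 lower (median 0.87), the 2 being *Igf1* and *C3*, of which 0 to 1 stayed lower when any 1 library was left out. *Pdgfb*, the B chain of platelet-derived growth factor, went from 1.27, 0.709 and 0.677 to 11.4, 10.7 and 16.5 FPKM (13.4-fold, limma adjusted p = 8.67e-07). *Cthrc1*, a secreted collagen-related protein, went from 2.54, 1.02 and 0.481 to 31.2, 7.86 and 6.08 (log2 3.27, SE 0.82, limma adjusted p = 0.00879), with replicate 1 the highest in each group. *Lif*, a cytokine of the interleukin-6 family, rose by a log2 of 2.52, *Sphk1*, the kinase that makes sphingosine 1-phosphate, by 1.75, *Efnb2*, an ephrin ligand, by 1.65 (not called with a pseudocount of 1), and *Sema4d*, a semaphorin, by 0.82. Of 21 tested Hippo pathway genes, of 25 listed, 3 were higher and 1 lower (median 0.42), and 5 were higher in the blocked fit. Neither share was above the 16.6% and 7.54% of all genes. With a minimum mean of 1 FPKM, 0 were higher and 0 lower. The 3 called higher in the main fit were *Amotl1* (log2 1.70) and *Amot* (log2 1.47), scaffolds that bind YAP, and *Tead1* (log2 1.21), a partner factor of YAP, the last not when the 2 groups were fitted alone. The 1 called lower, *Trim46* (log2 -0.83), encodes a ubiquitin ligase that the study links to YAP1 degradation, not a core Hippo protein. *Trim46* was not called without RANKL 72 h replicate 2 or 3 or control replicate 2 or 3 or when the 2 groups were fitted alone. *Yap1* and *Wwtr1* were not analysed here.

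**Figure D4:**
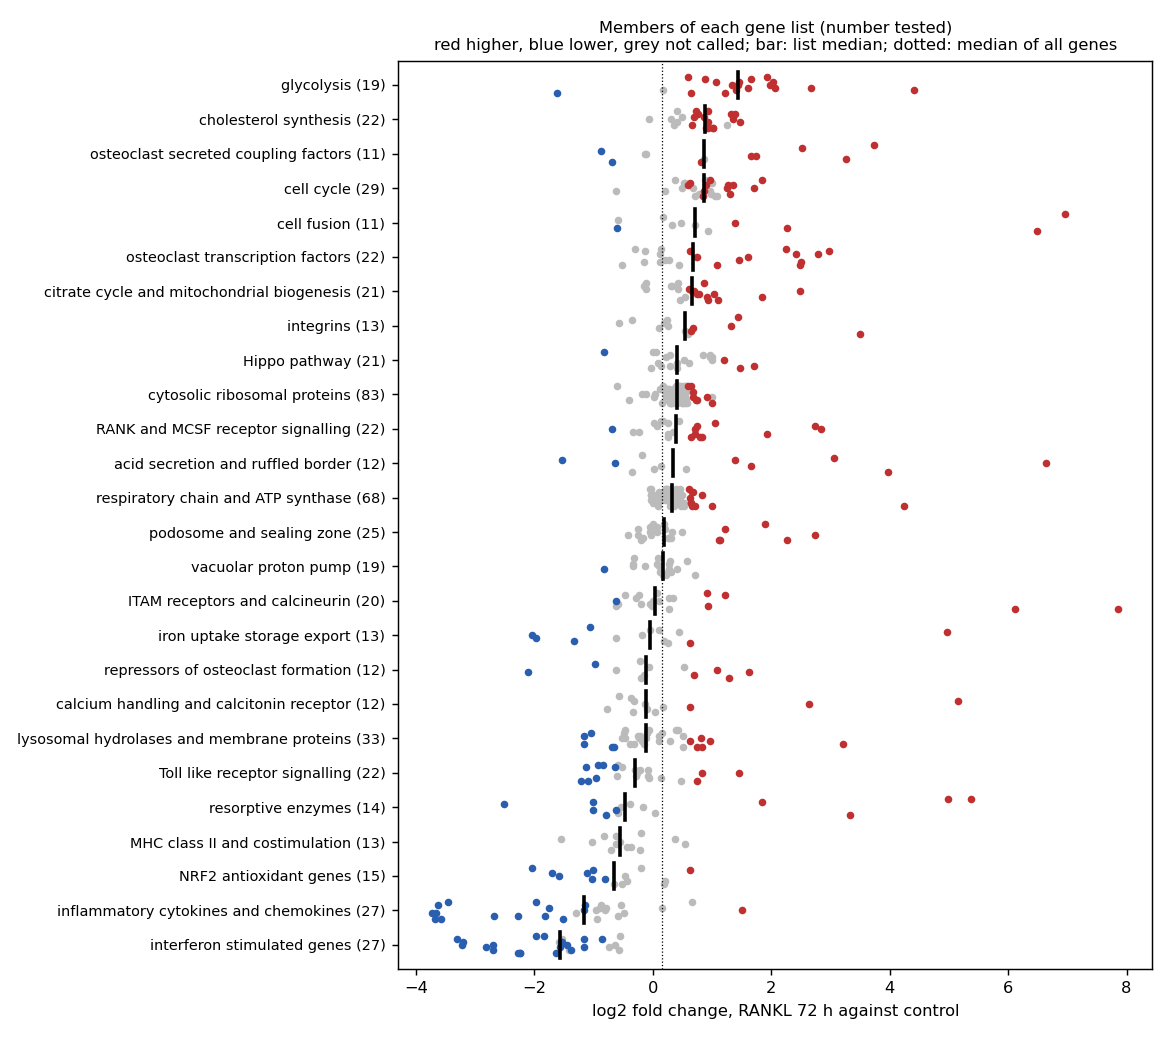
Log2 fold change of RANKL 72 h against control (x axis) of every tested member of each pathway list (y axis, number tested in brackets), red where called higher, blue where called lower, grey where not called, with a bar at the list median and a dotted line at the median of all genes. Glycolysis (17 higher, 1 lower) and cholesterol synthesis (15 higher, none lower) lie at the top, and cytokines (14 lower) and interferon-stimulated genes (20 lower) at the bottom.

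Among the 15 largest rises that met the fixed rule, which asks for a mean of at least 1 FPKM and groups that do not overlap, were genes outside the lists. *Mst1r*, which encodes the receptor kinase RON, had 3 fragments over the 3 control libraries and 4309 over the RANKL libraries, a depth-adjusted ratio of 1509 (95% counting interval 516 to 7318). *Mt3*, a metallothionein, went from 1.30, 0.349 and 0.0929 to 57.2, 40.2 and 130 FPKM (log2 7.08, limma adjusted p = 1.23e-05), and *Cyp2s1*, a cytochrome P450, was 102-fold higher. *Kbtbd11*, a Kelch and BTB domain protein, was 55.3-fold higher, *Adck3* 40.5-fold, and *Edil3*, a secreted integrin ligand, 35.6-fold. *Serpind1* had 2 fragments over the control libraries and 854 over the RANKL libraries, a depth-adjusted ratio of 448.5 (95% counting interval 124 to 3709). *Mgarp* and *Gzmg* each rose by a log2 of 5.13, *Gzmg* not called without control replicate 2 or with limma voom. With 72 h of LPS against control, *Adck3*, *Mgarp* and *Gzmg* were also called higher (log2 1.09, 2.82 and 5.89) and *Kbtbd11* lower (log2 -1.32). The largest falls were granule and blood cell genes. *Prss34*, a protease of basophils and mast cells, went from 43.2, 15.9 and 15.4 to 0.0803, 0.345 and 0.0389 FPKM (log2 -6.63, limma adjusted p = 2.01e-05). *Mpo*, *Ctsg*, *Elane* and *Prtn3*, stored in neutrophil granules and made by their precursors, fell by 5.64, 5.48, 5.31 and 5.08 on the log2 scale. *Prg2* of eosinophil granules fell by 4.87, and the platelet genes *Ppbp*, *Gp5* and *Itga2b* by 4.71, 4.38 and 4.29. All the falls named here were also called lower after 72 h of LPS against the same control. Their log2 fold changes with LPS ran from -8.04 (*Prg2*) to -2.14 (*Ppbp*), with -7.56 for *Mpo* and -7.20 for *Prss34*.

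Macrophage markers split. Of 21 tested, 2 were higher and 5 lower (median -0.09), and 1 higher and 7 lower after centring. *Cx3cr1*, the fractalkine receptor, went from 1.71, 2.40 and 2.05 to 34.3, 26.9 and 19.0 FPKM (12.2-fold, limma adjusted p = 1.36e-06). The Fc receptors *Fcgr1* and *Fcgr4* fell by 2.48 and 1.79, and the scavenger receptors *Cd36* and *Msr1* by 1.40 and 1.09 on the log2 scale. *Adgre1*, the gene of F4/80 (log2 0.37, limma adjusted p = 0.456), *Cd68* (log2 -0.25, limma adjusted p = 0.136) and *Lyz2* (log2 0.83, limma adjusted p = 0.119) did not pass.

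Markers of other cell types moved between the groups, and their part in the results above was not tested. All 7 tested basophil and mast cell markers, all 4 erythroid markers, 6 of 8 myeloid progenitor, 4 of 5 B cell and 6 of 12 neutrophil granule markers were lower, and none of these was higher. Their summed FPKM ran from 24.1 to 68.7 in control and 0.8 to 4.1 after RANKL for basophils and mast cells, from 86.3 to 148 and 6.5 to 18.6 for myeloid progenitors, from 16.3 to 21 and 5.1 to 7.2 for B cells, from 5.8 to 13.5 and 0.5 to 0.9 for erythroid cells, and from 8272 to 25572 and 2033 to 8139 for neutrophils, the last made up mostly of *S100a8* and *S100a9*. These 5 cell types also had lower markers after 72 h of LPS against the same control, a comparison for which the share of all genes called lower is not given here. The counts were 6 of 7 basophil and mast cell, 3 of 4 erythroid and 8 of 8 myeloid progenitor markers. They were 5 of 5 for B cells and 10 of 12 for neutrophil granules, where 1 was higher. *Cma1* and *Hbb-bs* were at 0 in all 6 libraries of control and RANKL 72 h. Of 6 dendritic cell markers 3 were lower (5 when the replicate number was a block, 1 with limma voom, and 0 without RANKL 72 h replicate 3 or control replicate 1 or 2, with *Cd209a* higher without RANKL 72 h replicate 3), and of 6 endothelial markers 1 was lower, *Kdr* (3 in the blocked fit, and 2 without RANKL 72 h replicate 2 or control replicate 3). Of 10 T and NK cell markers 1 was higher and 1 lower. The first count was 4 without RANKL 72 h replicate 3 and 0 without RANKL 72 h replicate 1 or 2 or control replicate 2 or 3, and the second was 0 without RANKL 72 h replicate 3 or control replicate 1. None of the adipocyte markers passed the filter on low values, and *Plin1* and *Lep* were at 0 in all 6 libraries.

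Calls of stromal markers depended on the library. Of 24 tested, 11 were higher and none lower (median 1.39), with 5 after centring, while the blocked fit gave 16 higher and 1 lower. The count was 2 without RANKL 72 h replicate 1 or control replicate 3, 5 without RANKL 72 h replicate 2, 4 without control replicate 2, and 21 without RANKL 72 h replicate 3. *Col1a1*, the main collagen of bone and fibroblasts, was at 116, 67.5 and 54.2 FPKM in control and 692, 322 and 158 after RANKL. RANKL replicate 1 was the highest and replicate 3 the lowest in 11 of the 11 called markers, whereas replicate 3 was the highest in 8 of the 9 called osteoclast markers. The summed stromal FPKM was 540, 348 and 252 in control and 2759, 1270 and 617 after RANKL, beside 280, 155 and 266 and 3168, 1721 and 5474 for the osteoclast markers. Of 4 tested osteoblast markers 1 was called, *Sp7*, but not without RANKL 72 h replicate 1 or 2 or control replicate 2 or 3, after centring, with limma voom or when the 2 groups were fitted alone (3 markers without RANKL 72 h replicate 3, 2 in the blocked fit), while *Lum* and *Lepr* did not differ beyond their spread.

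**Figure D5:**
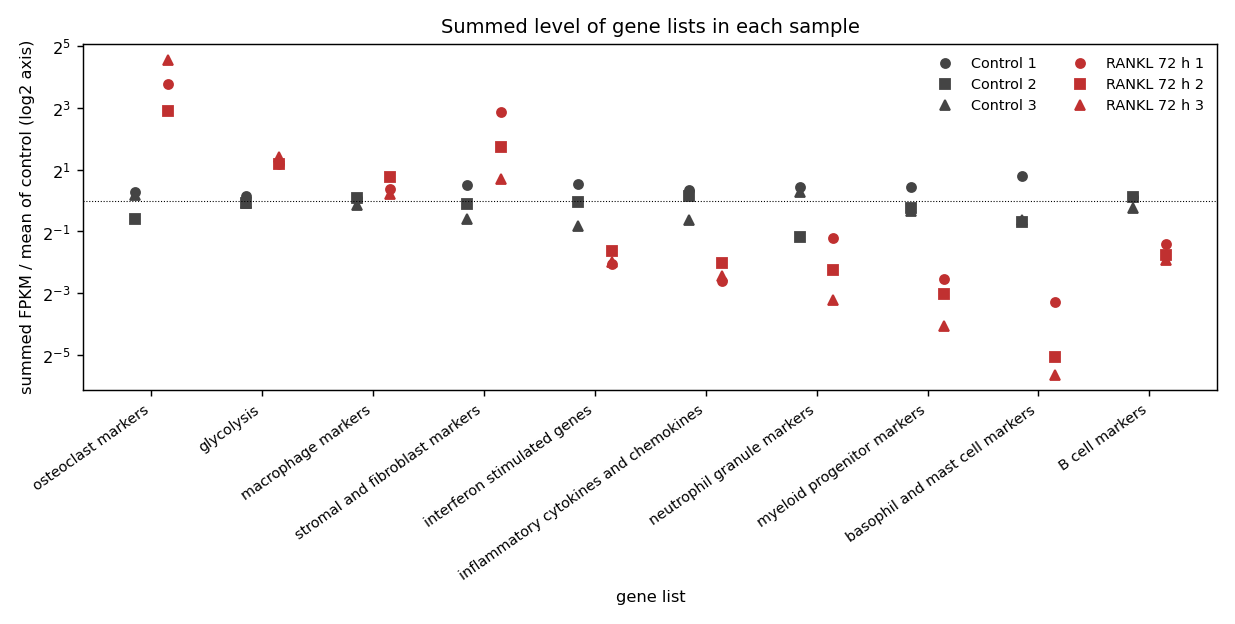
Summed FPKM of 10 marker and pathway lists in each library of control and RANKL 72 h, divided by the mean of the 3 control sums and drawn on a log2 axis, 1 point per library with a shape for each replicate number. Osteoclast markers (155 to 280 in control, 1721 to 5474 after RANKL) and stromal markers (252 to 540 and 617 to 2759) are higher after RANKL, and basophil and mast cell markers (24.1 to 68.7 and 0.8 to 4.1) are lower.

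After 4 h of RANKL few genes were called: 14 of all genes (0.119%) passed against control in either direction. A gene not called at 4 h may still have moved. Against the 4 h libraries, 1930 genes (16.4%) were higher at 72 h and 802 (6.83%) lower. Higher were 9 of the 10 osteoclast markers, 16 of 19 glycolysis genes and 13 of 21 citrate cycle genes, and 13 of 27 cytokine genes were lower. Of the 12 genes that hold back osteoclast formation, 4 were higher and 7 lower at 72 h than at 4 h (median -0.70). Their median at 4 h against control was 0.57, with 1 called higher and 0 lower. *Nfkb2* and *Relb* had means of 24.1 and 13.7 FPKM at 4 h, between those of control (11.7 and 5.53) and 72 h (55.1 and 16.3). Only *Nfkb2* of these was called at 4 h (log2 1.05, limma adjusted p = 0.045). *Ctsk* was at 24.9 FPKM at 4 h and 24.0 in control, and *Nfatc1* at 7.26 and 7.74.

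LPS for the same 72 h gives a comparison at equal time of stimulus. Against it 2739 genes (23.3%) were higher with RANKL and 1506 (12.8%) lower. All 10 osteoclast markers were higher with RANKL, *Itgb3* (log2 3.41) and *Atp6v0d2* (log2 2.24, limma adjusted p = 0.0013) included. These gaps take in changes with LPS, which left 2 of the 10 lower than control, *Itgb3* among them, and 1 higher, *Ctsk*. With RANKL against control, *Atp6v0d2* was not called and the call of *Itgb3* was lost in several settings. *Nfatc1* had a mean of 6.76 FPKM with LPS and 44.2 with RANKL. Several regulators did not pass between the stimuli: *Fos*, *Junb* and *Relb* were at log2 0.20, -0.20 and 0.22 between the stimuli (limma adjusted p = 0.58, 0.35 and 0.53). Glycolysis was higher with RANKL for 13 of 19 genes and lower for 2, although *Slc2a1* was at 61.7 FPKM with LPS and 81.1 with RANKL (limma adjusted p = 0.097). The proton pump had 4 subunits higher and 1 lower of 19, cholesterol synthesis 14 higher of 22, cell cycle 28 higher of 29, and ribosomal proteins 76 higher of 83. The last 2 lists were low with LPS itself. Against control, LPS left 28 of the 29 cell cycle genes (median log2 -3.09) and 64 of the 83 ribosomal proteins (median -0.85) lower. No share of all genes called lower with LPS against control is given here to set beside them. RANKL against control had only 12 and 8 of them higher. Cytokines were lower with RANKL for 19 of 27, led by *Ccl5* (29.2 FPKM with RANKL, 417 in control and 3209.9 with LPS). Stromal markers were higher with RANKL for 11 of 24, and *Col1a1* was at 79.6 FPKM with LPS. The comparisons with control and those with LPS share the RANKL libraries.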

How the data were processed

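Total RNA of the BMDMs was turned into libraries with the SMARTER mRNA-Seq kit. The authors deposited a table of FPKM per gene made with StringTie on GRCm38.p4 (mm10), as the labels and methods state, and the aligner is not given in the sources used here. Counts of fragments were not used as deposited values: they were recovered from the deposited FPKM, which gave whole fragments within 0.01 for 14485 of 14485 genes. All 15 libraries in 5 groups were fitted together on log2(FPKM + 0.1) in limma 3.58.1 (R 4.3.3) with empirical Bayes and a mean-variance trend, after genes under a mean of 0.1 FPKM were left out, and p-values were adjusted by Benjamini-Hochberg over the 11743 genes tested. The study calls genes at an unadjusted p under 0.05, which is one of the alternatives. The members and the 39 gene lists (743 genes, 699 of them tested) were chosen with earlier results of these data known. Named genes are members of the lists, and, at a mean of 1 FPKM or more, the 15 largest rises and the 15 largest falls among called genes whose groups do not overlap, predicted genes left out. Genes that sort after *Tti2* were not analysed here. Replicate numbers, which the labels do not explain, were checked for pairing: same-numbered control and RANKL 72 h libraries deviated together, with correlations of 0.318, 0.136 and 0.184 over 9486 genes, all above 0.1, although control replicate 2 correlated more with RANKL 72 h replicate 3 (0.265). Alternatives were the replicate block, centring or rescaling each library, other pseudocounts and filters, limma voom on recovered fragments, the 2 groups alone, other thresholds and leaving out each library. Intervals of fragment ratios cover counting error only, since fragments are not independent molecules. Gene positions are those of GENCODE M21, and promoters those of RefSeq. Whether counting used the strand is not stated, so overlapping and antisense genes are uncertain. Fits were tested on simulated data first.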

Additional observations from a re-analysis of the deposited data

Results flagged for a closer look

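The osteoclast markers and the 30 most changed genes, 36 genes in all, were examined. Of these, 3 were called higher with RANKL for 72 h and lower with LPS for 72 h, both against the same control libraries. They also differed between the stimuli by limma. Opposite calls from a shared control nearly fix that difference, so it adds no support. *Slc9b2* was at a log2 of 6.64 with RANKL and -0.94 with LPS, a difference of 7.58. *Kbtbd11* was at 5.79 and -1.32, a difference of 7.11. The falls of *Slc9b2* and *Kbtbd11* with LPS lay between low levels, near the 0.1 FPKM added to each value. Mean FPKM went from 0.365 in control to 0.142 with LPS for *Slc9b2*, and from 0.356 to 0.0814 for *Kbtbd11*. *Itgb3* was at 1.32 and -2.09, a difference of 3.41. Over all genes tested, 341 were called in opposite directions under the 2 stimuli, and 0 were called in opposite directions after 72 h and 4 h of RANKL.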

How the results depend on the processing

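The counts of 1951 genes higher and 886 lower stayed within 1.5 times under every alternative but one. Centring each library on its median gene gave 1167 higher and 1428 lower, since it takes the median difference of all genes as 0. With the replicate number as a block, which pairs the libraries, 2157 genes were higher and 992 lower. Leaving out 1 library gave 1421 to 1891 higher and 639 to 879 lower, the lowest of both without control replicate 1. Limma voom on recovered fragments gave 2086 and 830, an unadjusted p under 0.05 gave 2369 and 1062, and sums rescaled to be equal gave 2509 and 731. Of the genes named above, 0 to 10 lost their call and 0 to 5 gained one under any one alternative, and none reversed. Counts within lists that moved by over 1.5 times without a library are given beside them, and other calls named above were not changed by the block unless stated. Counts within lists also moved with other settings. Rescaled sums gave 23 ribosomal proteins, 17 stromal and 4 macrophage markers and 1 pump gene higher and 3 lysosomal genes lower. An adjusted p without a fold limit gave 27 ribosomal and 26 respiratory chain genes higher, and 8 lysosomal and 3 pump genes lower. An unadjusted p gave 18 stromal markers, 5 Hippo genes, 3 T and NK cell and 3 osteoblast markers higher and 4 endothelial markers lower. Without the filter on low values 7 stromal markers were higher and 3 resorptive enzymes lower. A pseudocount of 1 left 2 erythroid markers lower and 1 iron gene higher and gave 2 endothelial markers lower. A minimum mean of 1 FPKM, which tests fewer genes, left 3 basophil and mast cell, 1 erythroid and 1 B cell marker lower and 0 Hippo genes higher. Other than those given beside the cell cycle and dendritic cell lists, remaining moves over 1.5 times were of counts of 0 to 2 by 1 or 2 genes. Low counts limit the genes under 3 fragments a library, for which only bounds or intervals are given.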

Other observations

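The 3 control libraries differed in the level of *Cd74*, the invariant chain of MHC class II, at 315, 168 and 66.3 FPKM, and the 4 h RANKL libraries followed the same order of replicate numbers at 322, 164 and 50.7 FPKM. After 72 h of RANKL the values were 99.7, 231 and 61.1 FPKM, with replicate 2 the highest. The summed level of 13 genes for MHC class II and costimulation was 681, 381 and 158 FPKM in control and 237, 483 and 144 after 72 h.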
